A study of Mus musculus with 9 samples.

Results

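The MHC class I presentation pathway was followed across mouse kidneys through 10 genes chosen by their names. They encode the light chain B2m and the heavy chains H2-K1 and H2-D1, the peptide transporter and its loading factor Tap1, Tap2 and Tapbp, the inducible proteasome subunits Psmb8, Psmb9 and Psmb10, and the transactivator Nlrc5. All 10 were found among the 54532 genes of the count files, and all 10 were among the 16646 genes that passed the filter on low counts. The rule uses gene names and no measured value, although the set was proposed with earlier results of these data known.

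Kidney RNA was compared among 3 groups of 3 libraries, all from mice of C57BL/6J background. The first group was wild type (WT), the second Trex1-/- mice given PBS, and the third Trex1-/- mice given SN-011, an antagonist of the adaptor STING. The sample names give the second group only as knockout, and PBS is taken from the treatment note, which names no other vehicle group. Trex1-/- mice came from heterozygous matings, were 1 month old when treatment began, and received SN-011 or vehicle (PBS with a detergent) into the peritoneum every day for 2 weeks. WT mice were purchased at 4 to 8 weeks of age, no injection is described for them, and their age at sampling is not given, so the knockout, the injection and the source of the animals cannot be told apart in a comparison with WT. TREX1 is an exonuclease that clears DNA from the cytosol, and in its absence cGAS and STING drive interferon production.

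In class I presentation the proteasome cuts cytosolic proteins into peptides, the TAP transporter carries these into the endoplasmic reticulum, and tapasin helps load them on a heavy chain paired with beta-2-microglobulin for display to CD8+ T cells. Interferons exchange the constitutive catalytic subunits of the proteasome for inducible ones, which makes the immunoproteasome. NLRC5 is a transactivator that acts at class I genes together with the RFX and NF-Y complexes. Nearly all nucleated cells carry class I molecules, and leukocytes carry more of them than most other cells.

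Libraries held 16118813 to 21928965 counts, with reads for 23180 to 24657 genes. Levels are given as CPM, counts relative to library size with TMM scaling (trimmed mean of M-values). The lowest count of any of the 10 genes in any library was 187. Summed proximal tubule markers, at 7868 to 9428 CPM, were high in every library. Trex1 had 0 reads in all 9 libraries, WT included. All of its annotated exon bases are shared with Atrip on the same strand, so its count is no check of genotype. Reads of Y-linked genes were found in all 3 PBS libraries, in SN-011 replicate 2 and in WT replicate 3, and were near 0 in the other 4. The comparisons of the 10 genes are therefore also given for libraries of one kind, and those of the other lists are not. Differences are log2 fold changes ± standard error (SE) from edgeR's quasi-likelihood test over all 9 libraries, with p-values adjusted by Benjamini-Hochberg over all genes tested and called under 0.05. The labels do not say that libraries of a group came from separate animals, and the p-values measure only the spread between these libraries.

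Class I presentation genes were higher in Trex1-/- kidneys given PBS than in WT kidneys. Of the 10 genes, 9 rose past the threshold and 0 fell, whereas 1.44% of all genes tested rose and 0.439% fell. Only Psmb10 missed the threshold. The median difference of the 10 genes was 1.52 on the log2 scale against 0.0028 for all genes. In all 10, the lowest PBS library lay above the highest WT library, an order seen in 13.1% of all genes. Bulk RNA does not separate a change per cell from a change in the number of cells of a type.

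**Figure D1:**
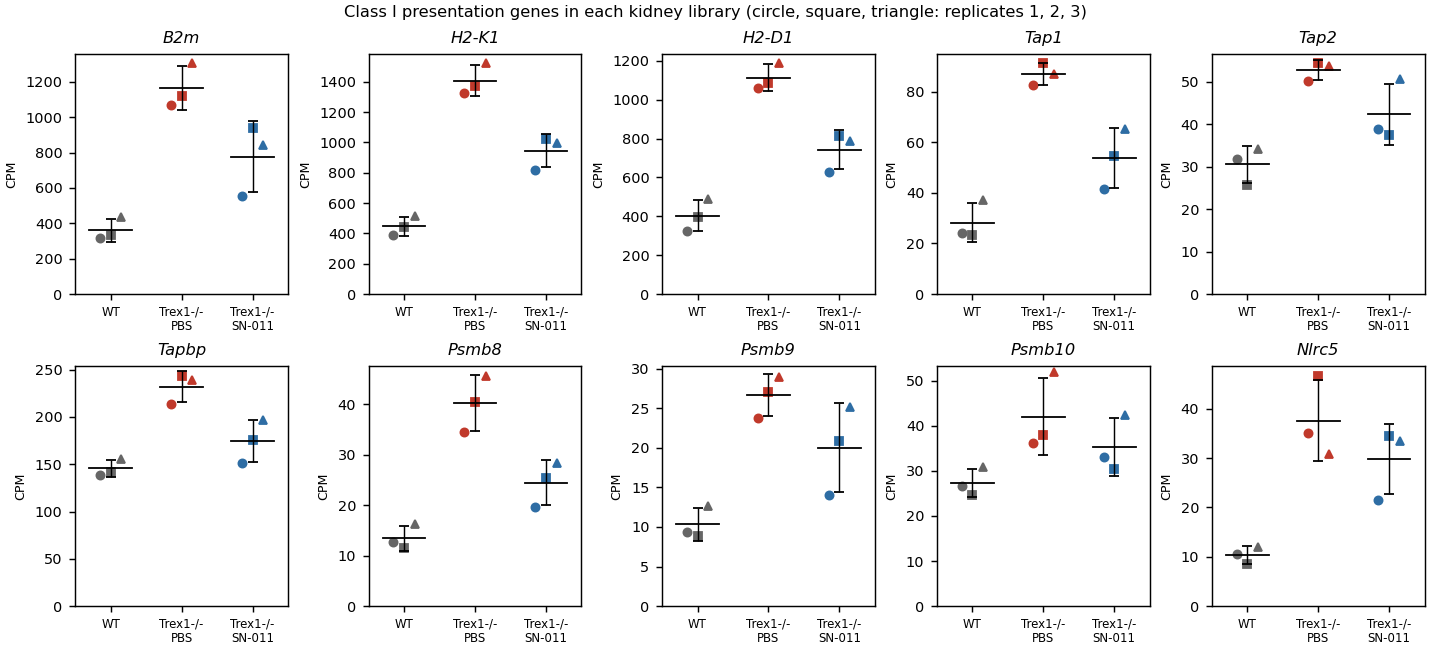
TMM-scaled CPM of each of the 10 genes in each library, by group. Markers are replicates 1, 2 and 3, bars show the group mean and whiskers ± SD (n = 3), and every axis starts at 0. In each panel all 3 PBS libraries lie above all 3 WT libraries, and the SN-011 mean lies between the other two.

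B2m, the light chain shared by all classical class I molecules, lies at chr2:122147686-122153083 on the plus strand of GRCm38. H2-K1 (chr17:33996017-34000347, minus strand) and H2-D1 (chr17:35262730-35267499, plus strand) encode the classical heavy chains. Their promoters (for H2-K1, the first of 2 RefSeq windows) are shown because the 3 genes changed together and are the most abundant of the set. Each window holds 250 bases before and 50 after the RefSeq start of transcription on GRCm38.p6, written 5′ to 3′ in the sense of the gene. Capitals mark 3 motifs searched on both strands. These are an interferon-stimulated response element (ISRE; TTTC, any 2 bases, TTTC, or its shorter form TTTC, any 2 bases, TTC), a gamma-activated site (GAS; TTC, any 3 bases, GAA) and the Y box of NF-Y (ATTGG).
B2m, chr2:122147437-122147736: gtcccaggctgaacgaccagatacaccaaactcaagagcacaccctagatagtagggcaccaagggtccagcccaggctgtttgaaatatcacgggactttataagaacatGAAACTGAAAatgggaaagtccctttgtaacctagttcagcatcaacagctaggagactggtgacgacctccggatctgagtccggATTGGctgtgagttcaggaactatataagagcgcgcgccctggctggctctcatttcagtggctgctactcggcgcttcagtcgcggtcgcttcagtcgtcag
H2-K1, chr17:34000298-34000597: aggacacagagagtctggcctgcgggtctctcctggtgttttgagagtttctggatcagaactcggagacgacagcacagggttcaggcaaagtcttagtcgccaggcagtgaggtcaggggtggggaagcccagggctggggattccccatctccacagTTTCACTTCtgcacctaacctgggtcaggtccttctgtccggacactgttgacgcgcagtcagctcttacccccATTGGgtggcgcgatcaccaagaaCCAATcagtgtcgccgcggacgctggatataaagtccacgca
H2-D1, chr17:35262844-35263143: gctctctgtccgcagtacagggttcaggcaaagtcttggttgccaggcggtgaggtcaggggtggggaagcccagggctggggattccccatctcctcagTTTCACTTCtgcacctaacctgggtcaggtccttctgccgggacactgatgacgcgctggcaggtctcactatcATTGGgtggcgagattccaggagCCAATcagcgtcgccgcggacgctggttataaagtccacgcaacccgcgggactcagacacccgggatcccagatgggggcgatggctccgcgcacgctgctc

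The B2m window holds an ISRE whose bases run from 139 to 130 before the start, and a Y box 53 bases before it. The H2-K1 and H2-D1 windows each hold the shorter ISRE, 90 and 150 bases before the respective start, and 2 Y boxes. An unbroken stretch of 47 bases is common to these 2 windows. The ISRE is present in 3.44% of the 32851 RefSeq windows of mouse genes, the shorter form, searched only after these sequences had been seen, in 7.52%, GAS in 8.3% and the Y box in 37.4%. Neither form contains the other. A match is a run of letters and not a measured binding site.

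B2m stood at 314, 333 and 433 CPM in WT replicates 1, 2 and 3, and at 1071, 1123 and 1306 CPM with PBS. The groups were far apart. WT replicate 3, the WT library with Y-linked reads, was the highest WT library for B2m and for every other gene of the set. B2m rose by 1.70 ± 0.20 (adjusted p = 0.00141), which is 3.24-fold with 2.46 to 4.27 at 2 SE either side. H2-K1 was measured at 389, 439 and 512 CPM in WT and at 1327, 1371 and 1525 CPM with PBS. It rose by 1.66 ± 0.14 (adjusted p = 0.000212), or 3.15-fold, with the smallest adjusted p of the 10 genes. H2-D1 went from 326, 396 and 488 CPM to 1059, 1088 and 1191 CPM, a rise of 1.46 ± 0.16 (adjusted p = 0.000871). The rises of the 3 chains thus lay between 1.46 and 1.70. Only 1.35% of the 150-base windows of H2-D1 transcripts recur in another gene, H2-Q1, and none of H2-K1 or B2m do.

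Peptide transport and loading genes rose less evenly. Tap1 and Tap2 are the subunits of the transporter, and Tapbp encodes tapasin, which bridges it to the heavy chain. Tap1 (chr17:34187553-34197225, plus strand) starts head to head with Psmb9, and their promoter windows have 275 bases in common, which is why the Tap1 window stands for both.
Tap1, chr17:34187306-34187605: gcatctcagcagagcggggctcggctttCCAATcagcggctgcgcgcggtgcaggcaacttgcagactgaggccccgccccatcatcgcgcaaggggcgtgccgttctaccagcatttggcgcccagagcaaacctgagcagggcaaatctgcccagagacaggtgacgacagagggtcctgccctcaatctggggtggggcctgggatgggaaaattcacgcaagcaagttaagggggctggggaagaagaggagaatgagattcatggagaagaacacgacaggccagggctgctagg

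The only motif found in it was 1 Y box, here read on the opposite strand. Tap1 was at 24.3, 23.5 and 37.0 CPM in WT and at 82.8, 91.3 and 86.8 CPM with PBS. The PBS libraries were close together and all above WT, and Tap1 rose by 1.62 ± 0.19 (adjusted p = 0.00155), or 3.08-fold. Tap2 (chr17:34203527-34216321, plus strand) was at 31.8, 25.8 and 34.1 CPM in WT and 50.1, 54.4 and 53.8 CPM with PBS. It rose by 0.79 ± 0.14 (adjusted p = 0.0145), or 1.73-fold. The values of Tapbp (chr17:33915899-33929292, plus strand) were 139, 142 and 156 CPM in WT and 213, 244 and 239 CPM with PBS, a rise of 0.67 ± 0.11 (adjusted p = 0.0125). Tap2 and Tapbp were therefore the 2 smallest rises among the genes called. The calls of both depend on single libraries. The adjusted p of Tap2 was 0.0739 without PBS replicate 2, 0.0596 without PBS replicate 3, 0.0611 without WT replicate 1 and 0.0702 without WT replicate 2. Tapbp had 0.0709, 0.0771 and 0.0761 without PBS replicate 2, WT replicate 1 and WT replicate 2. Genes annotated on the opposite strand overlap 24.9% of Tapbp exon bases (Gm19412), 18.5% of those of Tap2 (Gm15821 and Gm20496) and 14.7% of those of Psmb8 (Gm20496), and whether strand was used in counting is not stated.

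Of the inducible proteasome subunits, Psmb8 and Psmb9 rose and Psmb10 did not pass the test. Psmb8 (chr17:34197721-34201454, plus strand) encodes the inducible counterpart of the Psmb5 product, Psmb9 (chr17:34181987-34187764, minus strand) that of Psmb6, and Psmb10 (chr8:105935735-105938444, minus strand) that of Psmb7. The Psmb8 window is shown as the one with a GAS, 97 bases before its RefSeq start. This window lies wholly within the gene span given here, as do those of H2-D1, Tapbp and Psmb9 within theirs. In these genes the RefSeq start used for the window thus lies inside the span, and motifs before it are not upstream of the whole gene.
Psmb8, chr17:34197945-34198244: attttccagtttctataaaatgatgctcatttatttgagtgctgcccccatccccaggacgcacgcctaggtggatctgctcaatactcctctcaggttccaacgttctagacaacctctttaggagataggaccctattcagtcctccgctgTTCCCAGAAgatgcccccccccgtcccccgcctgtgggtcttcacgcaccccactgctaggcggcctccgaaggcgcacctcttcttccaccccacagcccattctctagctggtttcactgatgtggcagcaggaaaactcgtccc

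Neither ISRE form nor a Y box was found in it, and the Psmb10 window held none of the motifs. The Tapbp window held 2 Y boxes. Windows were at hand for 8 of the 10 genes, without Tap2 and Nlrc5. Psmb8 was at 12.6, 11.5 and 16.2 CPM in WT and 34.5, 40.5 and 45.6 CPM with PBS. Every PBS library held more than 2 times the highest WT level, and Psmb8 rose by 1.58 ± 0.17 (adjusted p = 0.000908), or 3.0-fold. Psmb9 was at 9.38, 8.90 and 12.7 CPM in WT and 23.8, 27.1 and 29.0 CPM with PBS. It rose by 1.37 ± 0.21 (adjusted p = 0.00752), and its adjusted p was 0.0524 without WT replicate 1 and 0.0503 without WT replicate 2. Psmb10 was at 26.6, 24.6 and 30.8 CPM in WT and at 36.1, 38.0 and 51.8 CPM with PBS. Its groups did not overlap, yet PBS replicate 3 stood well above the other two, and the difference of 0.62 ± 0.17 had an adjusted p of 0.108. Without SN-011 replicate 2, which enters through the shared spread, the adjusted p of Psmb10 was 0.0496.

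The transactivator Nlrc5 (chr8:94434356-94527272, plus strand) had the largest difference of the 10 genes. It was at 10.5, 8.45 and 12.0 CPM in WT and at 35.1, 46.7 and 30.9 CPM with PBS. The lowest PBS library still exceeded the highest WT library by more than 2 times. Nlrc5 rose by 1.87 ± 0.22 (adjusted p = 0.00133), which is 3.65-fold with 2.70 to 4.93 at 2 SE either side. With libraries that carry Y-linked reads alone (3 PBS libraries against WT replicate 3), the differences of the 10 genes were above 0, from 0.44 for Psmb10 to 1.64 for Nlrc5. The WT side is then 1 library, assumed to vary like the PBS libraries, which alone give the spread, and 7 genes were called under that assumption. With all 9 libraries and a term for Y-linked reads, 7 were called, without Tap2 (adjusted p = 0.0535) and Tapbp (adjusted p = 0.0566).

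**Figure D2:**
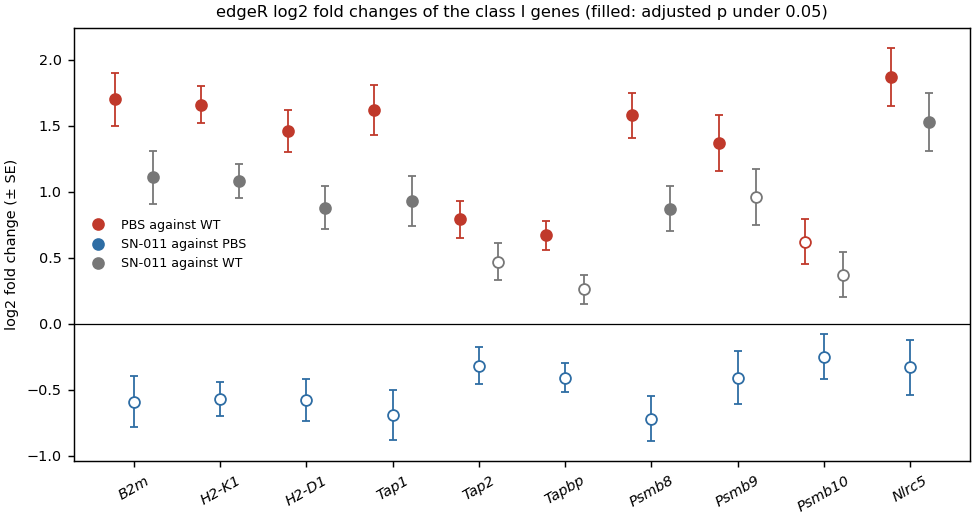
Log2 fold change of each gene in the 3 comparisons, with SE as whiskers. Filled symbols had an adjusted p under 0.05, open symbols did not. PBS against WT runs from 0.62 to 1.87 with 9 of 10 filled, SN-011 against PBS from -0.72 to -0.25 with none filled, and SN-011 against WT from 0.26 to 1.53 with 6 filled.

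Treatment with SN-011 left the 10 genes lower than PBS in every estimate, but none passed the test. The edgeR quasi-likelihood test called 0 of the 10 lower and 0% of all genes tested. That count of 0 over all genes rests on single libraries, since it was 517 without SN-011 replicate 2 and 22 without SN-011 replicate 3. Of the SN-011 libraries only replicate 2 carries Y-linked reads, as all 3 PBS libraries do. Without replicate 2, treatment and Y-linked reads therefore cannot be told apart. SN-011 replicate 2 differed from the other libraries of its group by 73.7 and 64.7 times the counting variance, and those differed from each other by 15.1 times. At an unadjusted p under 0.05 there were 7 of the 10 and 1905 of all 16646 genes. The DESeq2 Wald test called 4 of the 10 (H2-K1, H2-D1, Tap1 and Psmb8), edgeR's exact test 1 (Psmb8) and limma-voom 0, where the same tests called 183, 127 and 0 of all genes. The median difference was -0.49 against -0.0053 for all genes. In 6 genes (B2m, H2-K1, H2-D1, Tap1, Tapbp and Psmb8) all 3 SN-011 libraries lay below all 3 PBS libraries, an order that 8.41% of all genes showed.

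Psmb8 had the lowest estimate. Its SN-011 libraries held 19.7, 25.3 and 28.4 CPM, all below the lowest PBS library at 34.5 CPM. The difference was -0.72 ± 0.17 (adjusted p = 0.228), a level 0.608 times that with PBS, with 0.482 to 0.768 at 2 SE either side. Tap1 held 41.6, 54.5 and 65.2 CPM and differed by -0.69 ± 0.19 (adjusted p = 0.250). The classical chains were close to each other. B2m was at 554, 938 and 841 CPM, a difference of -0.59 ± 0.19 (adjusted p = 0.310). H2-K1, at 819, 1022 and 995 CPM, differed by -0.57 ± 0.13 (adjusted p = 0.227), and without SN-011 replicate 2 by -0.64, which was called (adjusted p = 0.0396). That fit sets PBS libraries with Y-linked reads against SN-011 libraries without them, so the 2 cannot be told apart in it. H2-D1, at 629, 811 and 788 CPM, differed by -0.58 ± 0.16 (adjusted p = 0.250). Tapbp held 151, 176.0 and 197 CPM, below PBS in each library, with a difference of -0.41 ± 0.11 (adjusted p = 0.250).

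The other 4 genes overlapped between the treatments. Tap2, at 38.8, 37.6 and 50.7 CPM, reached the PBS range in replicate 3 and differed by -0.32 ± 0.14 (adjusted p = 0.413). Psmb9, at 14.0, 20.9 and 25.2 CPM, differed by -0.41 ± 0.20 (adjusted p = 0.484). Psmb10, at 33.1, 30.3 and 42.4 CPM, and Nlrc5, at 21.6, 34.4 and 33.5 CPM, had intervals that crossed no change, 0.667 to 1.06 and 0.596 to 1.06 times the PBS level. Nlrc5 was thus the gene with the largest difference in PBS against WT and one of the smaller in SN-011 against PBS, although the contrast between these 2 was not tested. Within SN-011, replicate 1 was the lowest library for 8 of the 10 genes, and Tap2 and Psmb10 were lowest in replicate 2. In libraries with Y-linked reads alone, where SN-011 is replicate 2, all 10 estimates stayed below 0, from -0.65 to -0.11.

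Treated Trex1-/- kidneys remained above WT for part of the set. Of the 10 genes, 6 were called higher, against 0.823% of all genes. These were Nlrc5 (1.53 ± 0.22, adjusted p = 0.0110), B2m (1.11 ± 0.20, 0.0284), H2-K1 (1.08 ± 0.13, 0.0066), Tap1 (0.93 ± 0.19, 0.0494), H2-D1 (0.88 ± 0.16, 0.0284) and Psmb8 (0.87 ± 0.17, 0.0438). Psmb9 differed by 0.96 ± 0.21 with an adjusted p of 0.0612, and Tap2 by 0.47 ± 0.14 with 0.118. For Psmb10 (0.37 ± 0.17, adjusted p = 0.282) and Tapbp (0.26 ± 0.11, 0.259) the libraries of the groups overlapped. The other 8 did not overlap with WT, as did 11.8% of all genes in that direction. The median of the 10 was 0.91.

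These calls depended on single libraries. The comparison shares its WT libraries with PBS against WT and its SN-011 libraries with SN-011 against PBS. Without WT replicate 1 or without WT replicate 2 only H2-K1 was called, and Nlrc5 then had adjusted p-values of 0.0585 and 0.0546. Leaving out any of the 3 PBS libraries, or SN-011 replicate 3, left 2 calls, H2-K1 and Nlrc5. Without SN-011 replicate 2 there were 4, since Tap1 (0.0549) and Psmb8 (0.0514) were lost, and without SN-011 replicate 1 or WT replicate 3 there were 7, with Psmb9 (0.0125 and 0.0441). All 10 differences stayed above 0 when any library was left out. Among libraries without Y-linked reads, 2 against 2, the same 6 genes were called, from 0.97 for H2-D1 to 1.54 for Nlrc5 with Psmb8 at 0.99.

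Per kilobase of annotated exon, the order of levels in WT was B2m at 419 ± 74.2 CPM per kb (SD, n = 3), then H2-D1 (156 ± 31.5), H2-K1 (152 ± 21.1), Tapbp (40.1 ± 2.55), Psmb10 (16.0 ± 1.88), Tap2 (8.08 ± 1.14), Tap1 (5.16 ± 1.39), Psmb8 (3.97 ± 0.729), Psmb9 (2.82 ± 0.57) and Nlrc5 (1.21 ± 0.212). Of the neighbours, H2-D1 and H2-K1, and Tap1 and Psmb8, differed by less than the larger SD. With PBS, H2-K1 (479 ± 35.4) stood above H2-D1 (431 ± 26.9) and Tap1 (15.9 ± 0.781) above Tap2 (14.0 ± 0.616). The range from the most to the least abundant gene remained wide there, from 1357 ± 144 CPM per kb for B2m to 4.42 ± 0.965 for Nlrc5. With SN-011, H2-K1 (322 ± 37.4) and H2-D1 (288 ± 38.4), and Tap2 (11.2 ± 1.92) and Tap1 (9.83 ± 2.16), differed by less than the larger SD. The exon length counts every annotated transcript, so it is an upper limit for the length of the RNA in use.

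The constitutive subunits give a reference within each library. Psmb5, Psmb6 and Psmb7 differed between PBS and WT by 0.0053, -0.17 and -0.01, with adjusted p-values of 0.990, 0.504 and 0.976. The ratio of Psmb8 to Psmb5 counts was 0.131, 0.113 and 0.128 in WT, 0.354, 0.392 and 0.365 with PBS, and 0.199, 0.225 and 0.297 with SN-011. The 3 groups did not overlap, with SN-011 between the other two. The mean log2 ratio was 1.58 higher with PBS than in WT, differed by -0.64 between SN-011 and PBS, and was 0.94 higher with SN-011 than in WT. For Psmb9 to Psmb6 the ratios were 0.089, 0.0763 and 0.0958 in WT, 0.245, 0.274 and 0.242 with PBS, and 0.134, 0.194 and 0.231 with SN-011. These groups did not overlap either, with differences of 1.55, -0.48 and 1.07. For each of these 6 differences the exact permutation test, two-sided, gave p = 0.1, the smallest that 3 against 3 libraries allow, and 0.129 after adjustment over 9 tests, so none could pass the threshold in this design.

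For the third pair, the SN-011 libraries overlapped with both other groups. The ratio of Psmb10 to Psmb7 was 0.408, 0.352 and 0.407 in WT and 0.543, 0.552 and 0.702 with PBS, without overlap, a difference of 0.62 (exact permutation p = 0.1, adjusted p = 0.129). With SN-011 it was 0.546, 0.379 and 0.713, from within the WT range to above the highest PBS library. The difference from PBS was -0.17 (exact permutation p = 0.8) and that from WT 0.45 (exact permutation p = 0.3, adjusted p = 0.337). The sign of the former rests on SN-011 replicate 2, without which it was 0.07.

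**Figure D3:**
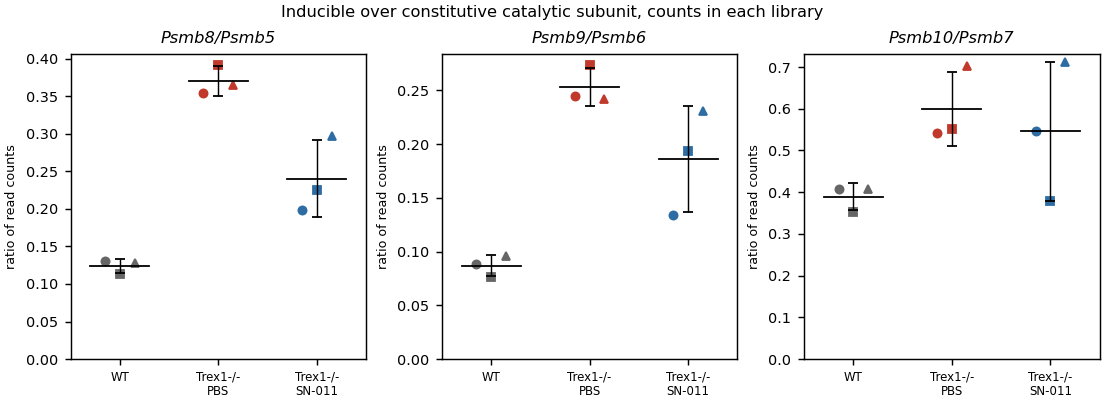
Ratio of the counts of each inducible subunit to those of its constitutive counterpart in each library, on axes that start at 0. Markers are replicates, bars group means and whiskers ± SD (n = 3). Psmb8/Psmb5 and Psmb9/Psmb6 separate all 3 groups, while Psmb10/Psmb7 with SN-011 runs from 0.379 to 0.713 from within the WT range to above the highest PBS library.

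Beyond the inducible subunits, no proteasome gene of the lists examined was called between PBS and WT. The other 11 subunits of the 20S core ranged from -0.16 to 0.20 and the 17 listed subunits of the 19S regulator, not a full set, from -0.33 to 0.20. The 9 genes of proteasome activators and assembly ranged from -0.11 to 0.36. Among these, Psme2, a subunit of the PA28 activator, had the largest difference at 0.36 ± 0.13 (adjusted p = 0.233). Psme1, its partner, differed by 0.26 ± 0.11 (adjusted p = 0.313), and Pomp, an assembly factor of the 20S core, by 0.02. Among 6 further genes of peptide loading and trimming, 1 was called, Erap1, the aminopeptidase that trims peptides in the endoplasmic reticulum. Its levels were 45.7, 40.5 and 49.6 CPM in WT and 59.6, 65.1 and 62.3 CPM with PBS, a rise of 0.46 ± 0.096 (adjusted p = 0.0394). The chaperones Calr, Canx and Pdia3 of the loading complex differed by 0.0034, 0.08 and 0.07 and were not called. No gene of these lists was called in SN-011 against PBS or in SN-011 against WT.

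Nonclassical and class I-like heavy chains moved in part with the set. Of 17 listed, 14 could be tested, and 7 of these rose with PBS against WT while 0 fell. The smallest p-values were those of H2-Q7, H2-Q6, H2-T10 and H2-Q4. H2-Q7 went from 33.6, 38.8 and 45.5 CPM in WT to 114, 119 and 117 CPM with PBS, a rise of 1.57 ± 0.13 (adjusted p = 0.000212). Its SN-011 libraries, at 74.1, 85.7 and 98.5 CPM, lay between the other groups. H2-Q6 rose by 1.25 ± 0.11 (adjusted p = 0.000237) and H2-Q4 by 1.16 ± 0.14 (adjusted p = 0.00167). H2-T10 rose by 1.82 ± 0.21 (adjusted p = 0.00136) at 2.11 ± 0.531 CPM in WT and 7.39 ± 0.267 CPM with PBS (SD, n = 3). Some of the 150-base windows of these transcripts recur in other genes, 5.9% of those of H2-Q7 (in H2-Q6, H2-Q10 and H2-Q5) and 20.9% of those of H2-T10 (in H2-T22 and in BC023719, which is annotated over H2-T10 exons on the opposite strand). Their counts are less certain than those of the classical chains for that reason. The class I-like genes Mr1, Cd1d1, Fcgrt and Hfe, which present other ligands or none, differed by -0.37, -0.59, -0.17 and -0.27 and were not called. In SN-011 against WT, 4 of the 14 were called, H2-Q2, H2-Q6, H2-Q7 and H2-T10, and in SN-011 against PBS none.

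**Figure D4:**
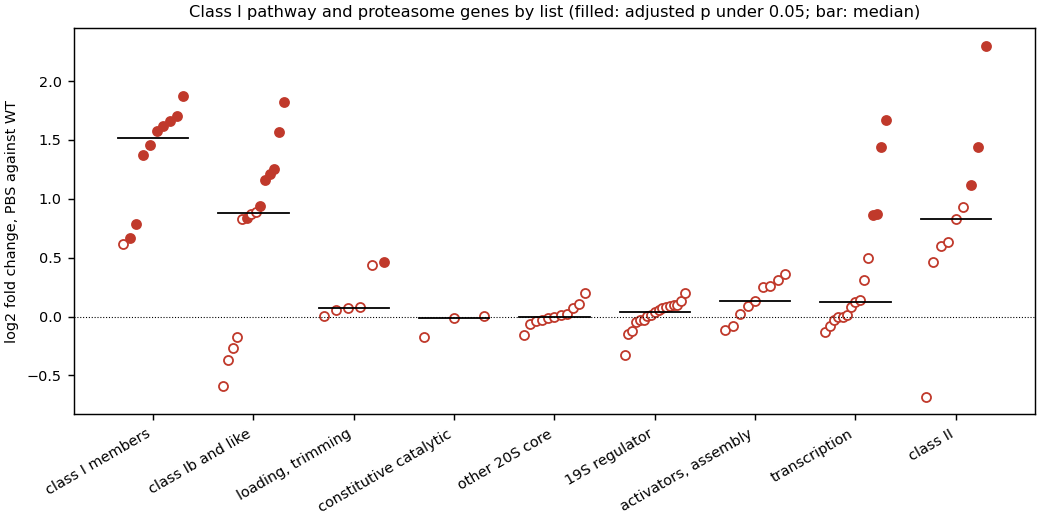
Log2 fold change of PBS against WT for each tested gene of the class I set and of 8 related lists, 1 point per gene in rising order, with the list median as a bar. Filled points had an adjusted p under 0.05. The lists of constitutive, 20S and 19S subunits sit between -0.33 and 0.20 with no filled point, and the class I set between 0.62 and 1.87.

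Some of the factors that act at class I promoters rose with PBS against WT. Stat2, a subunit of the interferon-activated complex that binds the ISRE, went from 30.1, 27.5 and 30.3 CPM in WT to 73.3, 96.4 and 68.9 CPM with PBS, a rise of 1.44 (adjusted p = 0.000334). Irf9, the DNA-binding subunit of that complex, rose by 0.86 (adjusted p = 0.000784) and Irf1, which also binds the ISRE, by 0.87 (adjusted p = 0.00945). With SN-011, Stat2 averaged 55.5 ± 5.32 CPM (SD, n = 3), and each library lay below every PBS library and above every WT library. Stat2 and Irf9 were called higher in SN-011 against WT, at 0.92 and 0.69. The partners of NLRC5 in the RFX and NF-Y complexes (Rfx5, Rfxap, Rfxank, Nfya, Nfyb and Nfyc) were not called in any comparison, and in PBS against WT they lay between -0.13 and 0.31.

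The 10 genes were compared with their common profile. Pearson's r of each gene's log2 CPM with the mean standardised profile of the set, over 9 libraries, ran from 0.887 for Psmb10 to 0.996 for Psmb8. Each gene is part of that mean, and the 3 group means carry much of the correlation. The order of libraries was not the same in all, since Nlrc5 in PBS replicate 3 (30.9 CPM) lay below SN-011 replicates 2 and 3, and Psmb10 in SN-011 replicate 2 (30.3 CPM) lay below WT replicate 3. The profile was -1.29, -1.38 and -0.724 in WT replicates 1, 2 and 3, 0.759, 1.02 and 1.17 with PBS, and -0.292, 0.183 and 0.553 with SN-011. Among 14832 other genes with a mean of at least 1 CPM, those most alike included Bst2 (r = 0.991), Xaf1 (0.991), Ifi27 (0.988) and Phf11b (0.987). Bst2, which encodes tetherin, a protein that holds budding virions at the cell surface, averaged 37.8 CPM in WT (SD 10.8, n = 3), 204 CPM in the PBS group (SD 32.3) and 101 CPM in the SN-011 group (SD 23.6). These 4 were called in PBS against WT and in SN-011 against WT, and none in SN-011 against PBS. They were picked for this likeness, so these values are a description.

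Of the 10 genes, 7 lie on chromosome 17 within an interval of 1.35 Mb (chr17:33915899-35267499), a stretch of the mouse MHC that runs from Tapbp to H2-D1 and leaves out the H2-Q, H2-T and H2-M genes. Of the other 68 protein-coding genes tested in this stretch, the median difference between PBS and WT was 0.02, and 3 were called higher, H2-DMb2 (2.30), H2-Ab1 (1.12) and C4b (2.32), of which the first and second are class II presentation genes and the third a complement gene with a close paralog, C4a, which makes its count less certain. In SN-011 against WT 1 was called, Col11a2 (1.65), a collagen gene. B2m, Psmb10 and Nlrc5 lie on other chromosomes.

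**Figure D5:**
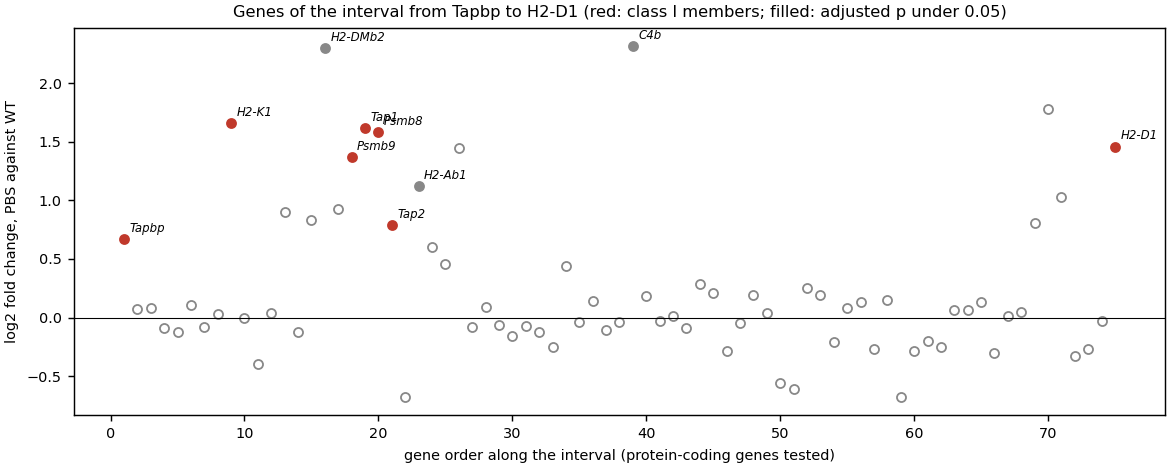
Log2 fold change of PBS against WT for the protein-coding genes tested in the interval from Tapbp to H2-D1, in chromosomal order. Red points are class I members, grey points the other 68 genes, and filled points had an adjusted p under 0.05. The 7 members lie between 0.67 and 1.66 among neighbours whose median is 0.02.

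Leukocyte markers moved with the class I genes. Summed T cell and cytotoxic markers (12 genes) were at 6.98 to 11.1 CPM in WT, 20.4 to 32.9 CPM with PBS and 8.22 to 20.2 CPM with SN-011. Of the 10 that could be tested, 2 were called higher with PBS than in WT, Cd3g and Cd4, and the natural killer markers Klrb1c and Ncr1 were near 0, at most 0.161 CPM on average in any group. Myeloid markers (12 genes) summed to 174 to 208 CPM in WT, 292 to 323 CPM with PBS and 168 to 268 CPM with SN-011, and 3 of the 12 were called higher with PBS, C1qa, C1qb and Ly6c2. B cell and plasma cell markers (6 genes) summed to 9.57 to 10.1, 20.1 to 25.0 and 14.1 to 34.1 CPM. Jchain, at 4.34 CPM on average in WT, 17.2 with PBS and 20.4 with SN-011, was called with PBS against WT (1.99, adjusted p = 0.0175), while the B cell marker Ms4a1 was at most 0.396 CPM on average in each group. In SN-011 against WT, Ly6c2 (1.90, adjusted p = 0.0379) and Jchain (2.24, adjusted p = 0.0185) were called higher, and 0 T cell and cytotoxic markers were called. No leukocyte marker was called in SN-011 against PBS. SN-011 replicate 1, lowest for 8 of the 10 class I genes, was also the lowest of its group in all 3 leukocyte sums. Endothelial markers (7 genes) summed to 886 to 1008 CPM in WT, 801 to 854 CPM with PBS and 708 to 852 CPM with SN-011. Of these 7, 0 were called in PBS against WT and 1, Plvap, was called lower in SN-011 against WT (-0.53, adjusted p = 0.0383). Markers of kidney epithelium other than proximal tubule (6 genes) summed to 10395 to 12000.0 CPM in WT, above the 9150.0 to 9630 CPM with PBS, and to 9536 to 10604 CPM with SN-011, with 0 of 6 called in any comparison. Proximal tubule markers summed to 9152 to 9428, 7868 to 9265 and 7935 to 9220.1 CPM, and 1 of the 6 was called lower in PBS against WT, Slc5a2 (-0.71). The part of these cells in the class I differences was not tested.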

How the data were processed

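PolyA-selected mouse kidney RNA, in 9 libraries, was sequenced by the authors as strand-specific read pairs, trimmed with Trimmomatic and aligned with HISAT2. Files deposited by the authors hold 1 raw count per Ensembl gene and library, made with featureCounts from uniquely mapped pairs (build mm10, per the submitters' notes). Tool versions, annotation and strand setting are not given in the sources used here. Pairs that fit more than 1 place equally well were left out by the authors, so genes with near-identical copies are undercounted. No replicates were pooled. Of 54532 gene identifiers, 54495 matched GENCODE vM21 (GRCm38), the source of symbols and positions, and 37 did not.

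Differences were tested with edgeR 4.0.16 under R 4.3.3 (TMM factors, filterByExpr with a minimum count of 10 and a minimum total of 15, glmQLFit and glmQLFTest). A single fit of all 9 libraries, with group means as its only terms, shared 1 estimate of spread. p-values were adjusted by Benjamini-Hochberg over 16646 genes. The SE was derived from the F statistic. Log2 ratios used counts plus 0.5 and an exact permutation test. Log2 CPM for profiles used a prior count of 2. Alternatives were DESeq2 1.42.0 size factors and Wald test, upper-quartile factors, 2 other filters on low counts, edgeR's exact test, limma-voom (limma 3.58.1), 6 libraries alone, a replicate block, a Y-linked term and leaving out each library. The steps were tested on simulated data. Libraries of a group differed by 7.74 to 73.7 times counting variance, so none was a duplicate.

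All 10 genes were named in every comparison. From each related list the genes called, at most the 4 with the smallest p, were named, besides the 3 constitutive subunits and the genes most alike. Others, such as Psme1, Psme2, Pomp, Calr and Mr1, the called genes of the MHC interval and the marker genes, were named after their values were seen. The members, the lists and the alternatives were chosen with earlier results of these data known. The analyses of libraries with or without Y-linked reads alone, and the shorter ISRE, were added after seeing the data. Promoter windows are from RefSeq (GRCm38.p6). Results for some genes that the rule would name are not reported here.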

Additional observations from a re-analysis of the deposited data

How the results depend on the processing

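PBS against WT gave 6 to 10 calls among the 10 genes over 20 alternatives, against 9, and all 10 differences stayed above 0. B2m, H2-K1, H2-D1, Tap1, Psmb8 and Nlrc5 were called in each of the 20. SN-011 against PBS, against 0, gave 3 calls with all genes of at least 1 read kept, 4 with the DESeq2 Wald test and 1 with edgeR's exact test. It gave 0 to 1 when 1 library was left out (1 without SN-011 replicate 2). Without that replicate, treatment and Y-linked reads cannot be told apart. SN-011 against WT, against 6, gave 2 with only its 6 libraries, 4 with upper-quartile factors, 1 to 7 when 1 library was left out (1 without WT replicate 1 or 2), 8 with the DESeq2 Wald test, and, with only libraries that carry Y-linked reads, 3, an alternative chosen after seeing the data. The latter sets 1 SN-011 library against 1 WT library, takes all spread from the PBS group and assumes that the lone libraries vary like it. The cause of these shifts was not tested, beyond the fewer libraries in such fits. With Y-linked reads only, Psmb10 in SN-011 against WT turned from 0.37 to -0.0013. The log2 ratio of Psmb10 to Psmb7 in SN-011 against PBS ran from -0.39 to 0.07 when 1 library was left out. Scaling moved the median of all genes by under 0.1.

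Replicate numbers are shared by the groups, but same-numbered libraries did not deviate together throughout (r from -0.294 to 0.242), and the numbers were not taken as pairs. With the number as a block, 10, 0 and 7 genes were called in the 3 comparisons, Psmb10 (adjusted p = 0.0125) and Psmb9 being those added. The paired ratio tests could not go below an exact p of 0.25. With 3 libraries a group, 0 calls in SN-011 against PBS do not show that the groups are alike.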

Other observations

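Class II presentation genes, which load peptides from outside the cell and are carried by antigen-presenting cells, rose in part as well. Of 10 listed, 9 could be tested, and 3 rose in PBS against WT while 0 fell. Cd74, the invariant chain, went from 253, 280.0 and 345 CPM in WT to 730.4, 690.3 and 963 CPM with PBS, a rise of 1.44 (adjusted p = 0.0113). H2-Ab1, a chain of the class II molecule, went from 98.2, 117 and 152 CPM to 231, 231 and 336 CPM (1.12, adjusted p = 0.0403), and H2-DMb2, a chain of the peptide exchange factor, from 0.896, 1.81 and 2.49 CPM to 6.76, 6.95 and 11.6 CPM (2.30, adjusted p = 0.0246). Ciita, the class II transactivator and a relative of Nlrc5, differed by 0.63 (adjusted p = 0.253). With SN-011, Cd74 held 402, 780.1 and 697 CPM, which overlapped with PBS, and 0 of the 9 class II genes were called by edgeR in SN-011 against PBS (1 at an unadjusted p under 0.05) or in SN-011 against WT (6 at an unadjusted p under 0.05). Both unadjusted counts include H2-Ob, which was lower with SN-011, at -0.68 against PBS and -1.36 against WT. Its levels were low, at most 1.75 CPM on average in any group, and it differed by -0.68 in PBS against WT. The other 8 class II genes lay above 0 in SN-011 against WT. The related summed level over the 10 class II genes was 574 to 799 CPM in WT, 1265 to 1748 CPM with PBS and 796 to 1414 CPM with SN-011.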
